A study of Homo sapiens with 39 samples.

Results

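The account covers R1 clone 1.2 of A375, an established human melanoma cell line, set against A375 wild-type cells (WT). The members are the 4 libraries the labels give to clone 1.2 and the 4 they give to WT, 8 of the 39 libraries of the series. Per the labels, clone 1.2 carries a deletion of a region named R1, and the study deleted enhancer regions of SOX10 in A375 and in a second melanoma line, WM115. The clone was taken up because its SOX10 level was the most clearly reduced among the A375 clones, so the SOX10 level is a description here. Libraries of 1 clone repeat that clone, and p-values measure only the spread between these libraries, which may be technical. The other A375 clones used for comparison are R1 clone 1.1 (3 libraries), R4 clone 4.1 (4 libraries) and R4 clone 4.2 (3 libraries), where R4 is another deleted region.

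SOX10 is a transcription factor that specifies neural crest cells and is kept in their glial and pigment cell descendants, as well as in most melanomas. Enhancers are stretches of DNA that raise transcription of a gene from a distance. Melanoma cells are known to move between a melanocytic, a neural-crest-like and an undifferentiated state, the last marked by receptors such as AXL and EGFR and by targets of the coactivator YAP.

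Levels are in TPM, a length-corrected share of a library's transcripts, and differences are on the log2(TPM + 1) scale, which understates changes of low genes. Read depth is unknown. Between 14611 and 16140 genes had at least 1 TPM in the 8 libraries. Across genes, the libraries correlated with their own group at 0.953 to 0.992 and with WM115 WT at 0.872 to 0.902. The clone libraries correlated with A375 WT at 0.952 to 0.968, which overlaps the range within groups. Mitochondrially encoded genes took 1.52%, 1.87%, 4.92% and 4.05% of the TPM in clone libraries 1 to 4 and 1.66%, 1.60%, 4.92% and 1.21% in WT libraries 1 to 4. Markers of other cell types were summed in each library. The endothelial sum was 1.55 to 2.06 TPM in WT and 1.88 to 2.84 TPM in the clone, the fibroblast sum was 3.52 to 8.14 and 10.5 to 15.8 TPM (2 of 5 tested markers, COL1A1 and LUM, were called higher), and the leukocyte sum was 26.6 to 121 and 91.7 to 170 TPM. The leukocyte sum was mostly CD68, a lysosomal protein, at a mean of 49.0 TPM in WT and 127 TPM in the clone, and it was not called.

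SOX10 (chromosome 22, GRCh38) was at 702, 706, 691 and 630 TPM in the WT libraries and at 441, 406, 473 and 451 TPM in the clone. The 2 groups did not overlap. The log2 difference was -0.62 (SE 0.15), and -0.44 against the mean of the other 3 A375 clones. Since the clone was chosen by this gene, no test is given for it. It was -0.68 within the 5 libraries with a mitochondrial share under 2.5%. Of the 53 annotated genes that start within 500 kb of SOX10, 28 were tested and 0 were called in this limma fit. Of the 28, which include SOX10, 10 had an unadjusted limma p under 0.05, beside 3530 of 16692 over all genes. SOX10, by which the clone was chosen, is one of the 10, so that count is a description. Of the 28, 24 lay above 0 and 4, SOX10 among them, below, with a median of 0.26. MICALL1, a regulator of endosome recycling, had a log2 difference of 0.88 (limma adjusted p 0.00707), and the noncoding AL031587.5 had 0.95 (0.00294).

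Over all 16692 genes tested, 669 were called in clone 1.2 against WT, at a limma adjusted p under 0.05 and a log2 difference of at least 1 in size. That is 4.01% of the genes: 429 were higher (2.57%) and 240 lower (1.44%). Higher genes made up 64.1% of the calls, and 51.9% after quantile normalization, which called 675. The groups of 4 did not overlap for 387 of the higher and 233 of the lower genes, beside 8.5% of all genes with every clone library above WT and 5.33% with every clone library below. The median of all genes was 0.07. In a fit of only the A375 libraries with a mitochondrial share under 2.5%, 194 genes were called. Of these, 185 were among the 669 in the same direction. That fit held 5 libraries of clone 1.2 and WT. Low-share libraries of the other A375 clones stayed in it and entered the estimate of spread. Just inside the size limit lay BMP4, PLCB4 and MEAK7, and just outside it SENCR, TSSC2 and SPRY2.

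The neural crest and glial list lost several of its members. Of its 24 tested genes 7 fell and 2 rose, and its median was -0.41. TFAP2B, an AP-2 transcription factor of early neural crest, was at 143, 188, 166 and 84.6 TPM in WT and at 3.79, 2.66, 4.43 and 4.73 TPM in the clone. Its mean fell from 145 ± 44.4 to 3.9 ± 0.915 TPM (SD, n = 4), 37.2-fold, with no overlap (log2 difference -4.86, SE 0.45, limma adjusted p 1.98e-06). RXRG, a retinoid X receptor used as a marker of neural-crest-like melanoma cells, was at 29.9, 35.8, 50.2 and 19.4 TPM in WT and at 0.952, 0.365, 0.72 and 1.26 TPM in the clone (log2 difference -4.20). Every clone library was below every WT library for both genes. SNAI2, a zinc finger transcriptional repressor that acts in neural crest migration, fell from a mean of 6.79 to 0.156 TPM. SOX8, the closest relative of SOX10, was at 1.9 to 4.44 TPM in WT and was listed at 0 in all 4 clone libraries. GAS7 and GJB1 fell by 1.01 and 1.05 on the log2 scale, with calls that did not hold without 1 library: GAS7 without WT library 1 or 2 or clone library 1 or 2 (with a difference as small as -0.94), and GJB1 without WT library 1 or 4 or clone library 2, 3 or 4 (adjusted p 0.0641 to 0.102). The list had 4 lower calls in place of 7 without WT library 1, and 3 in the fit of libraries of low mitochondrial share.

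Members of the same list went the other way. L1CAM, an adhesion molecule of axons and of invasive tumour cells, was at 19.9, 12.2, 10.5 and 25.3 TPM in WT and at 205, 135, 143 and 173 TPM in the clone (log2 difference 3.26, SE 0.29, limma adjusted p 1.49e-06). SOX9, which often stands opposite to SOX10 in melanoma, rose from 0.153 to 1.89 TPM, a low level in both groups (log2 difference 1.31). ERBB3 and PAX3, other genes linked to SOX10 in glia and pigment cells, were not called: their log2 differences were -0.37 and -0.11 (limma adjusted p 0.564 and 0.718). MITF, the master regulator of the pigment lineage, was at 18.7 to 26.7 TPM in WT and 14.9 to 19.7 TPM in the clone (log2 difference -0.41, adjusted p 0.195). Of 22 pigment cell genes, 10 could be tested, 2 fell (EDNRB and BCL2A1) and the median was 0.02. EDNRB, the endothelin receptor of pigment cell precursors, fell from 38.6 to 10.1 TPM, and lies on chromosome 13, whose genes were lower as a whole in this clone. After centring each chromosome, its log2 difference was -1.41 in place of -1.76 and its adjusted p was 0.0642. BCL2A1 was not called without WT library 3 or 4 or clone library 1 or 4 (adjusted p 0.0538 to 0.0933).

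**Figure D1:**
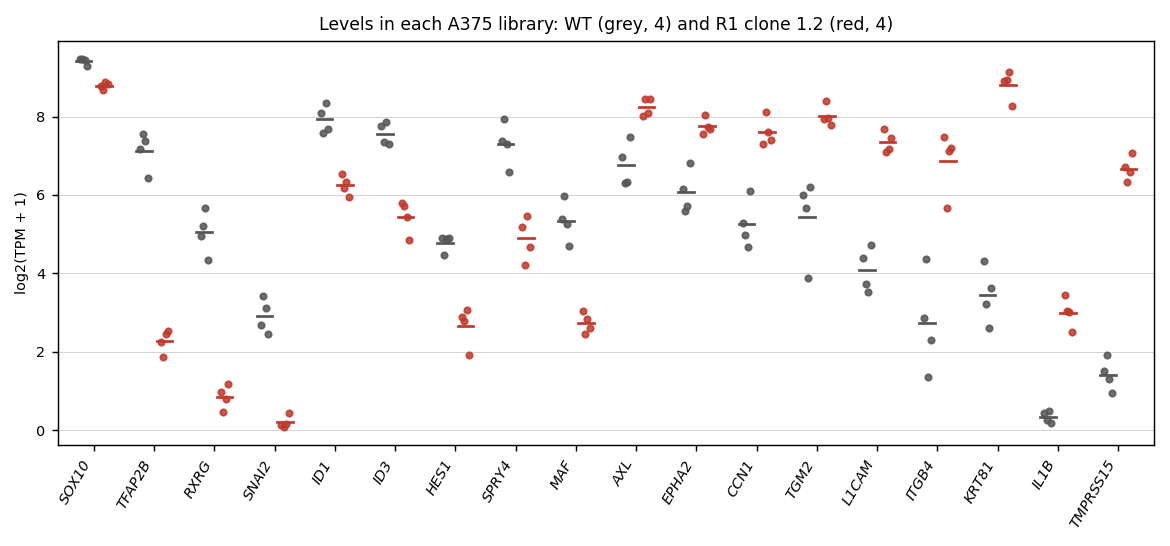
Level of 18 genes in each library, as log2(TPM + 1) on the vertical axis, with 1 point per library and a bar at the mean. WT libraries (grey, 4 per gene) and clone 1.2 libraries (red, 4 per gene) do not overlap in any of the 18 genes, from SOX10 (log2 difference -0.62) to KRT81 (5.38).

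The ID genes, inhibitors of basic helix-loop-helix factors and direct targets of BMP signalling, fell together with several BMP ligands. In the list of BMP and ID genes 8 of 20 tested members fell and 1 rose, with a median of -0.40. ID1 was at 271, 192, 323 and 205 TPM in WT and at 91.2, 71.6, 79.3 and 60.6 TPM in the clone (log2 difference -1.68, SE 0.21, limma adjusted p 6.64e-05). ID3 was at 215, 164, 231 and 156 TPM in WT and at 54.9, 51.5, 41.9 and 27.7 TPM in the clone (log2 difference -2.12). The highest clone library lay well below the lowest WT library for both. ID2 and ID4 fell by 1.66 and 1.26 on the log2 scale from mean levels of 6.04 and 2.24 TPM. Among the ligands, BMP7 fell from 4.87 to 0.496 TPM, BMP6 from 3.66 to 1.19 TPM and BMP4 from 2.96 to 0.989 TPM. BAMBI, a decoy receptor, fell from 68.3 to 20 TPM, and NOG, a secreted BMP antagonist, rose from 0.0975 to 2.2 TPM. BMP4 was not called without WT library 1, 2 or 3 or clone library 1, 3 or 4 (adjusted p 0.0536 to 0.0975), nor BMP6 without WT library 1 or clone library 1 or 4 (0.0652 to 0.0699).

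Repressors downstream of Notch receptors also fell, while the list's other members were spread on both sides of 0. Of 20 tested Notch pathway genes 3 fell (HES1, HEY1 and HEY2), 1 rose (HES2), and the median was 0.23. HES1 was at 28.7, 21.2, 28.1 and 29.1 TPM in WT and at 6.41, 5.93, 7.43 and 2.77 TPM in the clone, a 4.76-fold fall with no overlap (log2 difference -2.12, SE 0.24, limma adjusted p 1.83e-05). HEY1 fell from 5.93 to 1.51 TPM and HEY2 from 4.08 to 0.119 TPM. The ligand gene JAG1 had a log2 difference of -0.57 and was lower than in the other 3 clones by 1.82 on the log2 scale (limma adjusted p 3.2e-08). NOTCH1, a receptor, had 0.49 (adjusted p 0.177). Without WT library 2 the list had 3 higher calls. HES2 was not called when WT library 1, 3 or 4 or clone library 1, 3 or 4 was left out (adjusted p 0.066 to 0.113). On the log2(TPM + 1) scale, which understates changes of low genes, HES1 fell furthest among the Notch genes. Over the alternative runs the lowest log2 difference was -4.03 for HEY2 and -2.31 for HES1. The 250 bases upstream of HES1 are shown because of its place on the log2(TPM + 1) scale. They come from RefSeq (GRCh38.p14), chr3:194135898-194136147, plus strand, and the capitals mark TGGGAA, the core motif of the Notch partner RBPJ.
HES1: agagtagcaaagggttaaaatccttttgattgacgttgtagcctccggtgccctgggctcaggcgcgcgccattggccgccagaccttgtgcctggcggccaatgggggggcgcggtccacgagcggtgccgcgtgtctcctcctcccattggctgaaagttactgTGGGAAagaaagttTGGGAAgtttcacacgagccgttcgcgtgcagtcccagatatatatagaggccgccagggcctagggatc
TGGGAA was searched on both strands and occurs 2 times here. It is present in 20.8% of the 35116 windows of that length. Among called genes, 269 higher and 157 lower ones had a window, and the first window of each was counted. TGGGAA is present in 20.1% and 19.1% of these. A match is a description of the letters only.

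Genes of the ERK pathway were mixed. Of 29 tested output and feedback genes 3 fell and 1 rose, with a median of -0.02. SPRY4, a feedback inhibitor of receptor signalling, was at 166, 246, 156 and 94.8 TPM in WT and at 35.3, 17.6, 43.5 and 24.7 TPM in the clone (log2 difference -2.41, SE 0.47, limma adjusted p 0.00342). EGR1 and EGR3, immediate early transcription factors, fell from 52.8 to 11.4 TPM and from 18.6 to 5 TPM. EPHA2, an ephrin receptor, rose from 70.2 ± 29.6 to 217 ± 31.7 TPM (SD, n = 4). DUSP6, an ERK phosphatase, had a log2 difference of -0.46 (adjusted p 0.193). EGR1 was not called without WT library 3 (adjusted p 0.0537). Without WT library 4 the list had 5 lower and 3 higher calls.

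Among 20 AP-1 family factors tested, 2 fell and 1 rose. MAF was at 40.8, 61.9, 37.6 and 24.8 TPM in WT and at 7.16, 4.47, 6.07 and 5.1 TPM in the clone (log2 difference -2.60, SE 0.31, limma adjusted p 3.05e-05). FOSB fell from 7.08 to 2.58 TPM and FOSL2 rose from 7.66 to 30.4 TPM. FOSL1 was at 107 to 443 TPM in WT and 381 to 628 TPM in the clone (log2 difference 1.36, adjusted p 0.111). WT library 4 held the highest WT value of FOSL1, and without it FOSL1 reached an adjusted p of 0.0375 (log2 difference 1.76).

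Some receptors and YAP targets used as markers of the undifferentiated state rose, and most members of these lists were not called. Of 23 YAP and TEAD genes tested 5 rose and 0 fell, with 20 above 0 and a median of 0.41. Of 24 genes of the undifferentiated state 4 rose and 0 fell, with a median of 0.50. AXL, a receptor tyrosine kinase, was at 123, 78.4, 79.8 and 177 TPM in WT and at 259, 349, 269 and 348 TPM in the clone (log2 difference 1.48, SE 0.29, limma adjusted p 0.00401). CCN1, a secreted matricellular YAP target, was at 38.2, 30.3, 24.3 and 67.7 TPM in WT and at 155, 274, 195 and 169 TPM in the clone (log2 difference 2.35). WT library 4 was the highest of WT for both, and still below every clone library. EGFR, the epidermal growth factor receptor, rose from 4.31 to 12.5 TPM, and AJUBA, a LIM protein of cell junctions, from 9.19 to 39.1 TPM. CRIM1 and AMOTL2 rose from 50.7 to 147 TPM and from 28.6 to 77 TPM. Neither was called without WT library 3 (adjusted p 0.0543 and 0.0648), which left 3 of the 5 YAP and TEAD calls. CCN2, a second YAP target, had a log2 difference of 1.90 (adjusted p 0.138) and reached 0.0419 without WT library 4. In the fit of libraries of low mitochondrial share the YAP and TEAD median was 0.21 with 0 calls. The median of the undifferentiated list was 0.32 with 1 call. Among 24 receptor tyrosine kinases tested, TIE1 also rose, to 4.05 TPM, and FLT1, a VEGF receptor, fell from 21.8 to 3.11 TPM. FLT1 lies on chromosome 13 and had a log2 difference of -2.54, or -2.20 after centring each chromosome.

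Factors of epithelial to mesenchymal transition did not move as a block. Of 14 tested genes 3 fell and 1 rose, with a median of 0.19. PRRX1, a mesenchymal homeobox factor, was at 111, 82.7, 121 and 76.9 TPM in WT and at 13.4, 10.2, 13.1 and 14.9 TPM in the clone (log2 difference -2.81, SE 0.35, limma adjusted p 4.89e-05). TWIST1 fell from 30.7 to 12.3 TPM, SNAI2 fell as above, and CLDN1, a tight junction protein, rose from 0.604 to 3.24 TPM.

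**Figure D2:**
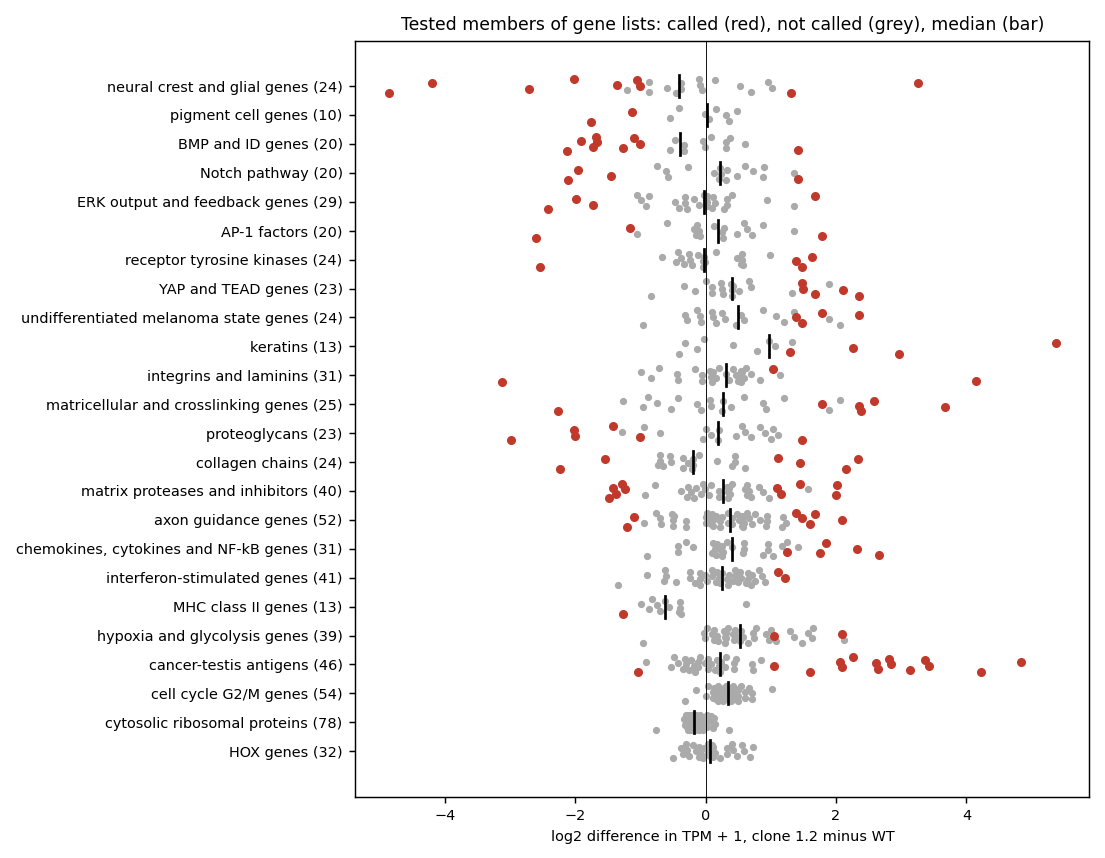
Log2 difference of clone 1.2 from WT (horizontal axis) for every tested member of 24 gene lists, with the number tested in parentheses, called members in red, others in grey and the list median as a bar. BMP and ID genes have 8 lower calls of 20, cancer-testis antigens have 14 higher calls of 46, and G2/M, ribosomal protein and HOX genes have 0 calls.

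KRT81, a hair keratin, had the largest log2 difference of all tested genes on the log2(TPM + 1) scale. It was at 18.9, 8.27, 5.09 and 11.4 TPM in WT and at 483, 491, 565 and 305 TPM in the clone, a 42.3-fold difference of means (log2 difference 5.38, SE 0.47, limma adjusted p 1.11e-06). Of 55 keratin genes 13 were tested, 4 rose, 0 fell and the median was 0.97. KRT7, a keratin of simple epithelia, rose from 3.72 to 19.6 TPM, KRT80 from 20.4 to 106 TPM and KRT86, next to KRT81 in sequence, from 0.717 to 3.02 TPM. Reads of KRT81 and KRT86 may not be separable. KRT80 was not called when any 1 of the libraries except WT library 4 was left out (adjusted p 0.0621 to 0.137), and KRT86 was not called without WT library 3 (0.0632), which left 2 of the 4 keratin calls. The summed epithelial markers were at 257 to 404 TPM in WT and 469 to 629 TPM in the clone, mostly KRT18 and KRT8. Of the 8 markers 3 (KRT18, KRT8 and KRT14) were tested and 0 were called. KRT5, KRT19, EPCAM, CDH1 and TP63 did not reach the level needed for testing. The part of other cells in this result was not tested.

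ITGB4, the integrin subunit of hemidesmosomes, was at 6.3, 19.4, 1.56 and 3.93 TPM in WT and at 177, 50.1, 139 and 145 TPM in the clone (log2 difference 4.15, SE 0.63, limma adjusted p 0.000403). Its lowest clone library, library 2, was above the highest WT library, also library 2. In the deposited transcript table the most abundant of its 13 transcripts was a retained-intron form in WT (39.7% of the gene's TPM) and a coding form in the clone (35.6%). ITGA9, an integrin subunit for tenascin and osteopontin, fell from 14.4 to 0.446 TPM. In the list of 31 integrins and laminins tested 2 rose and 1 fell.

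Matrix genes changed in both directions. COL1A1 and LUM, counted here, are also the fibroblast markers that were called, while COL1A2, COL3A1 and THY1 were under 0.13 TPM on average in both groups. COL1A1 was not called without WT library 1, 3 or 4 or clone library 1, 3 or 4 (adjusted p 0.0862 to 0.136). The part of other cells was not tested. Of 24 collagen chains tested 4 rose and 2 fell, of 25 matricellular and crosslinking genes 5 rose and 1 fell, of 40 matrix proteases and inhibitors 5 rose and 5 fell, and of 23 proteoglycans 1 rose and 5 fell. SMOC1, a secreted calcium-binding matrix protein, was at 0.578, 0.431, 1.18 and 0.798 TPM in WT and at 29.5, 17.7, 20.1 and 18.3 TPM in the clone (log2 difference 3.67, SE 0.18, limma adjusted p 7.96e-10). TGM2, a crosslinking transglutaminase, rose from 49.6 to 263 TPM, and SPP1, osteopontin, from 5.23 to 33.6 TPM. COL12A1 and COL13A1 rose from 5.15 to 29.6 TPM and from 4.85 to 24.8 TPM. ACAN, aggrecan, was at 11.5, 55.5, 13.5 and 7.8 TPM in WT and at 0.909, 0.943, 1.81 and 1.19 TPM in the clone (log2 difference -2.99). SDC3 and COL19A1 fell from 83.6 to 19.6 TPM and from 21.4 to 3.68 TPM. HTRA1, a secreted protease, fell from 65.8 to 6.35 TPM and TIMP1, a metalloprotease inhibitor, from 916 to 354 TPM. ADAMTS12, a matrix protease, rose from 4.78 to 21.8 TPM. Without WT library 3 or clone library 3 or 4 the collagen list had 2 higher calls in place of 4. Without WT library 1 or 2 or clone library 3 or 4 the proteoglycan list had 3 lower calls in place of 5, and without WT library 2 it had 3 higher calls.

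Guidance molecules leaned higher. Of 52 axon guidance genes tested 5 rose and 2 fell, with a median of 0.38, which was 0.22 in the libraries of low mitochondrial share. SEMA3D and SEMA3F, secreted semaphorins, rose from 1.53 to 9.26 TPM and from 5.24 to 16.5 TPM, and their receptor subunit NRP1 from 21.1 to 62.5 TPM. SEMA6A fell from 5.05 to 1.62 TPM. Without WT library 2 or 4 the list had 8 higher calls.

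Of 31 chemokine, cytokine and NF-kB genes tested 5 rose and 0 fell, with 26 above 0 and a median of 0.41. IL1B, an inflammatory cytokine, was at 0.356, 0.186, 0.411 and 0.134 TPM in WT and at 9.84, 7.17, 7 and 4.71 TPM in the clone (log2 difference 2.65, SE 0.27, limma adjusted p 5.15e-06). IL18 rose from 0.285 to 5.9 TPM and CCL2, a monocyte chemokine, from 0.434 to 4.36 TPM. NFKBIZ, a nuclear NF-kB cofactor, rose from 3.86 to 10.5 TPM. IL24 rose from 32.4 to 102 TPM, but was not called without WT library 1, 2 or 4 or clone library 2, 3 or 4 (adjusted p 0.0601 to 0.115). Of 41 interferon-stimulated genes 2 rose (HERC5 and IFI44L) and 0 fell, a called share of 4.88% that is near the 4.01% of all genes. MHC class II genes, which present antigen, lay below WT: 12 of 13 tested were under 0, with a median of -0.62, but only HLA-DOA was called. At a limma adjusted p under 0.05 with a difference of any size 6 were lower, beside 515 of 16692 over all genes. HLA-DRA was at 367 to 565 TPM in WT and 245 to 292 TPM in the clone (log2 difference -0.74). It did not pass 0.05 without WT library 3 or clone library 3 or 4 (limma adjusted p 0.0628 to 0.0865). HLA-DOA was not called without WT library 1 or 2 or clone library 1, 2 or 3 (adjusted p 0.0609 to 0.0819). The same list had a median of -0.61 in clone 1.1, which shares the WT libraries.

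Cancer-testis antigens are normally made in germ cells and reappear in melanoma. Of 98 such genes 46 could be tested, 14 rose and 1 fell. All 5 SPANX genes tested and 8 of 11 GAGE genes rose, with 1 of 2 MAGEC genes. By contrast 0 of 9 CT45A genes were called, with log2 differences of -0.26 to 0.21, and the MAGEA genes had 0 higher and 1 lower call of 9 (MAGEA1). Genes of each family share nearly identical sequence, so the values of single members are uncertain and each is described as a family.

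SPANXC was at 0.17, 0.354, 0.361 and 0.471 TPM in WT and at 34.7, 16.8, 21.8 and 26 TPM in the clone (log2 difference 4.23, SE 0.17, limma adjusted p 1.44e-10). SPANXA2 was listed at 0 in 2 WT libraries and was at 26.2 to 57.1 TPM in the clone. GAGE12D was at 2.48, 8.26, 9.94 and 14.5 TPM in WT and at 100, 94.7, 111 and 66.1 TPM in the clone (log2 difference 3.43, SE 0.36). MAGEC1 rose from 0.105 to 6 TPM. The 8 GAGE genes that rose had lower means in each of the other clones than in WT, and GAGE12C, for example, was at a mean of 16.8 TPM in WT, 122 TPM in clone 1.2, and 0.26, 0.57 and 0.339 TPM in clones 1.1, 4.1 and 4.2. MAGEA1 was not called without WT library 3 or 4 or clone library 1, 3 or 4 (log2 difference -0.99 to -0.94), and GAGE2E was not called without any 1 of the 8 libraries (adjusted p 0.057 to 0.0914).

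The 250 bases upstream of a SPANX and a GAGE gene are shown since these 2 families hold 13 of the 14 higher calls of the list. They are RefSeq sequences (GRCh38.p14), SPANXC at chrX:141242518-141242767, minus strand, and GAGE12D at chrX:49541483-49541732, plus strand, with no part in capitals.
SPANXC: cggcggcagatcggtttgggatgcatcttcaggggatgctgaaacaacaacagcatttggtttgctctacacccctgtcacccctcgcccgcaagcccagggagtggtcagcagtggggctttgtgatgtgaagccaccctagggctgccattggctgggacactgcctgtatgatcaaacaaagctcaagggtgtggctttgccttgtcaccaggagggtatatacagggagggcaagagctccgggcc
GAGE12D: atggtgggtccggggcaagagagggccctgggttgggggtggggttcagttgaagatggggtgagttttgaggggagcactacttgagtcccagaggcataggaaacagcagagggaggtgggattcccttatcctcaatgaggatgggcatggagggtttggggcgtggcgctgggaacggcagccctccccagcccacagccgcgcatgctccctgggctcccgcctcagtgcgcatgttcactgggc
The GAGE12D sequence is identical in 9 of the 12 GAGE symbols of the promoter table, so these windows do not tell those copies apart.

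**Figure D3:**
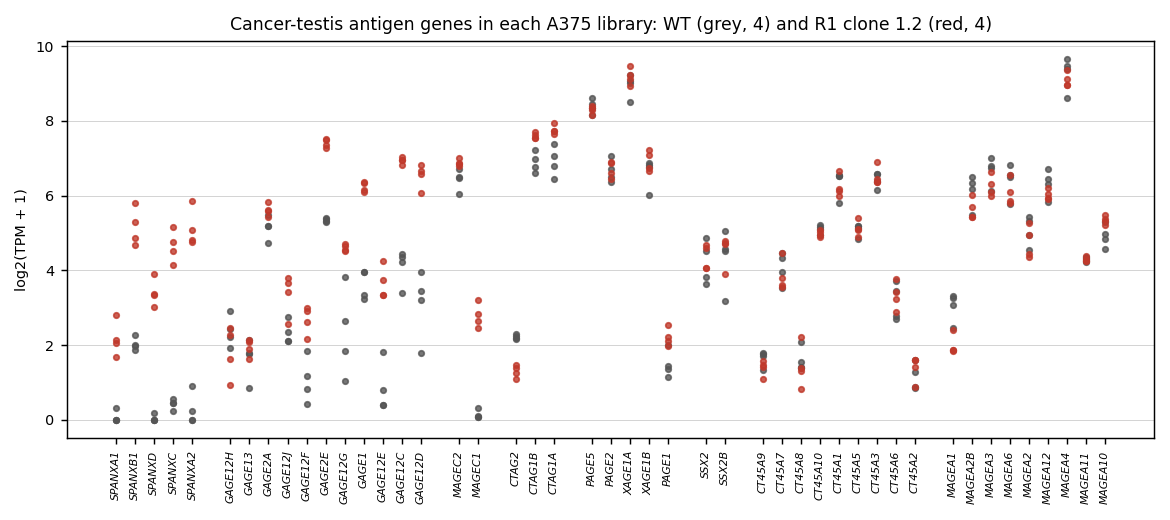
Level of tested cancer-testis antigen genes in each library, as log2(TPM + 1) on the vertical axis, grouped by family, with WT in grey and clone 1.2 in red (4 points each per gene). SPANX and most GAGE genes separate the groups, and the CT45A genes, with log2 differences of -0.26 to 0.21, do not.

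Other genes led the lists without belonging to one. TMPRSS15, the intestinal protease enteropeptidase, was at 1.85, 2.76, 1.45 and 0.911 TPM in WT and at 103, 79.3, 94.5 and 132 TPM in the clone (log2 difference 5.25, SE 0.19, limma adjusted p 4.95e-11). C19orf33 rose from 1.15 to 47.4 TPM. Of the genes that fell, FDCSP, a secreted peptide first found in follicular dendritic cells, was at 25.7, 32, 49.5 and 45 TPM in WT and at 0.28, 0.144, 0.147 and 0.493 TPM in the clone (log2 difference -4.91). VAT1L was at 11.2 to 23.3 TPM in WT and was listed at 0 in 3 of the 4 clone libraries. SORCS1, a sorting receptor, fell from 22.5 to 0.342 TPM and SOD3, extracellular superoxide dismutase, from 149 to 5.85 TPM. SPRR2D, TESC and ENPP2, the last the enzyme that makes lysophosphatidic acid, fell by 3.60, 3.55 and 3.17 on the log2 scale. A2M, a protease inhibitor, fell from 24.3 to 0.734 TPM, but its WT values ran from 2.1 to 73.4 TPM. A2M was not called without WT library 2 or 3 or clone library 2 or 3 (log2 difference -2.95 to -2.16, adjusted p 0.0519 to 0.0648).

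Of 2246 long noncoding RNAs tested 56 rose (2.49%) and 20 fell (0.89%), shares at or below those of all genes (2.57% and 1.44%). UCA1, first described in urothelial carcinoma, was at 13.1, 7, 5 and 14.3 TPM in WT and at 196, 122, 144 and 113 TPM in the clone (log2 difference 3.81, SE 0.47, limma adjusted p 5.78e-05). ARLNC1 rose from 0.561 to 16.7 TPM and LINC02582 from 0.141 to 12.3 TPM. AC244153.1 and AL161431.1 rose by log2 differences of 3.78 and 3.53.

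Several large programmes had 0 called genes in the limma fit. None of 43 S phase, 54 G2/M, 28 p53 target, 38 sterol and fatty acid synthesis, 39 unfolded protein and stress response, 78 cytosolic ribosomal protein, 77 nuclear OXPHOS, 32 HOX or 47 histone genes was called. At an unadjusted limma p under 0.05 there were 0, 3, 6, 14, 13, 2, 4, 7 and 7 genes in these lists, in the same order. Over all genes the number was 3530 of 16692. At a limma adjusted p under 0.05 with a difference of any size, the sterol list had 5 genes higher and 1 lower. The stress response list had 0 higher and 5 lower, beside 908 higher and 515 lower over all genes. Small shifts of whole lists stood beside the 0 calls. Of the G2/M genes 52 lay above 0 with a median of 0.34, and of the ribosomal protein genes 69 lay below 0 with a median of -0.18. The libraries overlapped in both lists. The G2/M sum was 1826 to 6687 TPM in WT and 3973 to 6658 TPM in the clone, and 2 of 54 genes had no overlap. The ribosomal sum was 188261 to 272777 and 184705 to 227038 TPM, and 5 of 78 genes had no overlap. Over all genes, 8.5% had every clone library above WT and 5.33% had every clone library below. Of 39 hypoxia and glycolysis genes tested 36 lay above 0, with a median of 0.53. The called share, 2 genes or 5.13%, was near the 4.01% of all genes. ADM, adrenomedullin, rose from 7.14 to 44.9 TPM and SLC2A1, a glucose transporter, from 231 to 482 TPM. The hypoxia median was 0.10 with 0 calls in the fit of libraries of low mitochondrial share. The list had 0 higher calls without WT library 3 and 4 without clone library 2. ADM was not called without WT library 3 (adjusted p 0.0523), nor SLC2A1 without WT library 1 or 3 or clone library 1, 3 or 4 (adjusted p 0.0534 to 0.133).

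Genes of chromosome 13 were lower as a group. Over 299 tested genes the median was -0.33, and 74.9% lay below 0. The median depended on which genes entered: it was -0.44 over genes at a mean of at least 5 TPM and -0.0027 with no filter on low values, beside 0.04 and 0.02 for all genes under the same filters. The medians of the other 22 chromosomes lay between 0.03 and 0.11. The chromosome 13 median relative to the WT mean was -0.45, -0.29, -0.34 and -0.27 in clone libraries 1 to 4 and -0.07 to 0.07 in the WT libraries. In clones 1.1, 4.1 and 4.2 it was 0.04, -0.03 and 0.06. Along the chromosome, in windows of 50 tested genes, the median was -0.53 in the lowest window, near the proximal end, and -0.10 and -0.13 in the 2 most distal windows. Of the 299 genes 10 were called higher (3.34%) and 13 lower (4.35%), FLT1 and EDNRB among the lower, beside 2.57% and 1.44% of all genes. Copy number was not measured here, and its part in this shift was not tested.

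**Figure D4:**
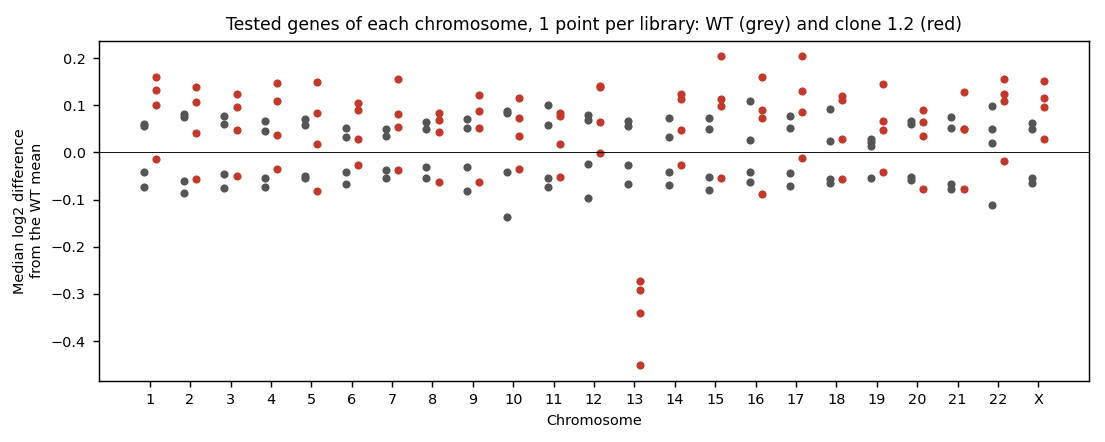
Median log2 difference from the WT mean over the tested genes (vertical axis) of each chromosome (horizontal axis), with 1 point per library for WT (grey, 4) and clone 1.2 (red, 4). On chromosome 13 the clone libraries sit between -0.45 and -0.27 and the WT libraries between -0.07 and 0.07.

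The other A375 clones were used to ask where clone 1.2 stands apart from other clones of the line. Against WT, clones 1.1, 4.1 and 4.2 had 122, 109 and 79 called genes (0.731%, 0.653% and 0.473%), with the WT libraries shared by all 4 comparisons. Clone 1.2 against the mean of these 3 clones, which uses no WT library in the contrast, had 1014 called genes (6.07%), 718 higher (4.3%) and 296 lower (1.77%). Of the genes called against WT, 348 higher and 178 lower ones were also called in the same direction against the other clones. These genes were picked by calls in both comparisons. Among them, KRT81 (log2 difference 7.76, limma adjusted p 3.53e-10), GAGE12C (6.55) and TMPRSS15 (6.54) ranked highest against the other clones. VAT1L (-4.69) and TFAP2B (-4.20) were among the lowest. KRT81 was at 1.53, 0.377 and 2.9 TPM in clones 1.1, 4.1 and 4.2, below its WT mean of 10.9 TPM, and TMPRSS15 was under 0.13 TPM in all 3.

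ID1, HES1 and PRRX1 were lower in clone 1.2 than in the other clones as well. ID1 was at a mean of 351, 300 and 267 TPM in clones 1.1, 4.1 and 4.2, beside 248 TPM in WT and 75.7 TPM in clone 1.2, and differed from the 3 clones by -1.98 (limma adjusted p 6.16e-07). HES1 was at 38.9, 43.5 and 34.9 TPM in those clones and differed by -2.63 (adjusted p 7.79e-08). PRRX1 was at 104, 139 and 85 TPM and differed by -2.86 (adjusted p 2.74e-06). A2M was not called in this contrast (adjusted p 0.295).

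Clone 1.1 carries the same labelled deletion. Between clones 1.2 and 1.1, 1028 genes were called (6.16%), 782 higher (4.68%) and 246 lower (1.47%) in clone 1.2. There were 670 calls without library 2 of clone 1.1. RXRG, FDCSP and EGFR did not pass the test between these clones: RXRG was at 2.32 TPM in clone 1.1 and 0.825 TPM in clone 1.2 (log2 difference -0.70, limma adjusted p 0.229), FDCSP at 1.36 and 0.266 TPM (-0.63, adjusted p 0.479) and EGFR at 10.6 and 12.5 TPM (0.25, adjusted p 0.483). TFAP2B was at 86.6 TPM in clone 1.1 and differed by -3.80 (adjusted p 5.91e-05). MITF was lower in clone 1.1, at 8.41 TPM, with a log2 difference of 0.90 between the clones (adjusted p 0.00584).

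**Figure D5:**
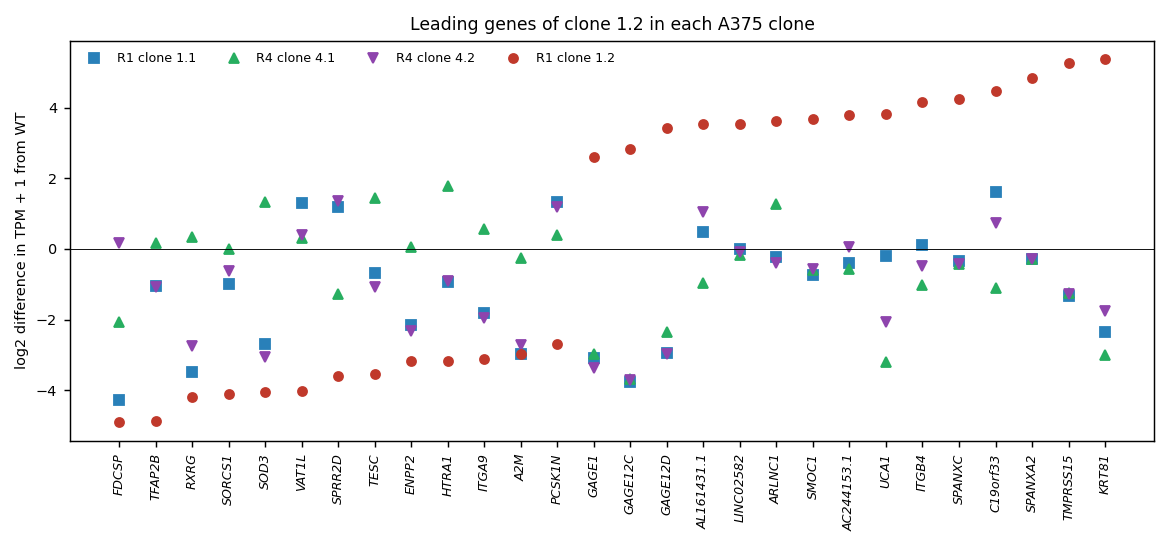
Log2 difference from WT (vertical axis) of the leading genes of clone 1.2 in each A375 clone, where all clones share the WT libraries. TFAP2B is at -4.86 in clone 1.2 and at -1.06, 0.17 and -1.09 in clones 1.1, 4.1 and 4.2, KRT81 is above 0 in clone 1.2 and below 0 in the others, and RXRG and FDCSP are also low in clone 1.1 (-3.50 and -4.28).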

How the data were processed

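Per the labels' protocols, total RNA was extracted, poly-A RNA was captured on oligo-dT beads and random hexamers primed the cDNA. The authors deposited gene and transcript tables in TPM. DRAGEN and the build GRCh38 are named in the submitters' processing notes, and the annotation is not given in the sources used here. Each table holds 6 value columns of no listed sample, which were not used. Depth is unknown, so no counting interval was computed. Of the gene lines, 200 repeated another line and were used once.

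The test was limma (3.58.1, under R 4.3.3) on TPM plus 1 in log2 units. All 18 A375 libraries were fitted with 1 coefficient per group and a variance trend, and p-values were two-sided and Benjamini-Hochberg adjusted over 16692 genes with at least 1 TPM in at least 3 A375 libraries. The procedure was tested on simulated data. Positions come from GENCODE 29 (58453 identifiers matched, 2218 not).

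The members and gene lists were chosen with earlier results of these data known. Named genes are the 12 called genes that rose and the 12 that fell furthest without overlap. Others are the genes within 500 kb of SOX10, up to 4 called members per list and those nearest the threshold. The 5 highest and 5 lowest against the other clones were also named, taken among genes called the same way against WT. Other list members named were chosen after their values were seen. Alternatives covered the pseudocount, filters, scaling, fit, mitochondrial share, chromosome centring, replicate block and left-out libraries. Leaving out libraries of clones 1.1, 4.1 and 4.2 was added after seeing the data.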

Additional observations from a re-analysis of the deposited data

Results flagged for a closer look

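In 20 of 234 groups of 4 libraries, 1 library stood apart from the other 3 by a gap above Dixon's critical share of the group's range, where chance gives about 1 in 20. In WT the highest library stood apart for A2M (73.4 TPM), ACAN (55.5 TPM), CD68 (120 TPM), COL1A1 (3.32 TPM), EGR3 (21.6 TPM), HES2 (3.71 TPM), HEY1 (7.98 TPM), HEY2 (9.64 TPM), KRT8 (94.8 TPM), MAGEC1 (0.236 TPM), SPP1 (9.55 TPM) and TIMP1 (1279 TPM). The lowest stood apart for HES1 (21.2 TPM). The mitochondrial share of WT library 3 (4.92%) stood apart from the other WT libraries, which lay between 1.21% and 1.66%. In clone 1.2 the highest library stood apart for ADM (119 TPM), AJUBA (61.6 TPM), BMP7 (0.929 TPM), MAGEA1 (4.31 TPM) and VAT1L (0.012 TPM, with the other 3 listed at 0), and the lowest for ADAMTS12 (18.6 TPM).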

How the results depend on the processing

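Calls against WT numbered 321 with genes at a mean of at least 5 TPM (fewer genes were tested), 1423 with no minimum difference, 194 with the 5 libraries of low mitochondrial share (fewer libraries) and 376 with a replicate block in a fit of only the groups compared (656 in that fit without the block), beside 669. Against the other 3 clones there were 1589 with a pseudocount of 0.1, 507 with the mean filter, 3413 with no minimum difference and 379 with low mitochondrial share, beside 1014. Against clone 1.1 there were 495, 2202, 236 and, with the block in a fit of only the groups compared, 414 (855 without the block), beside 1028. The log2 difference of SOX10 stayed below 0 in every alternative run, at -0.55 after quantile normalization, -0.68 with low mitochondrial share and -0.62 with the replicate block. Apart from the alternatives named as having fewer genes or libraries, the cause was not tested. Same-numbered clone and WT libraries did not deviate together (correlations -0.02, -0.62, 0.04 and -0.19), so the numbers were not taken to pair them. Between libraries of different number the correlations ran from -0.39 (clone library 1, WT library 4) to 0.56 (clone library 2, WT library 4). Variation shared by the 2 groups was not tested. Leaving out 1 library gave 510 (without WT library 3) to 760 calls against WT, 759 to 1249 against the other clones, 670 to 1456 against clone 1.1, and a SOX10 difference of -0.66 to -0.58. In the libraries of low mitochondrial share BMP and ID genes had 5 lower calls, cytokine genes 3 higher, cancer-testis antigens 12 higher and keratins 1 higher, and the median of the factors of epithelial to mesenchymal transition was -0.04. Of 170 named genes followed over 20 alternatives, 58 kept their side of the threshold in all, 108 no longer passed it in at least 1, 4 (CCN2, CD68, FOSL1 and KRT8) newly passed it in at least 1 and 0 reversed. Depth is unknown, so precision at low TPM cannot be stated.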
